A study of Mus musculus with 6 samples.

Results

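The comparison set 1 library of TROY knockout cells against a group of 2 libraries, 1 of Lingo1 knockout cells and 1 of Lingo2 knockout cells, which makes 3 of the 6 libraries in the series. All 3 came from MLE12, a mouse line of immortalized lung epithelial cells, grown to a monolayer, wounded with a pipet tip and collected 24 hours after the scratch. The libraries were grouped by genotype label, although with earlier results of these data known, and the parental libraries played no part. No genotype had a second library. How the knockouts were made, and whether each line grew from 1 cell, is not given in the sources used here.

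TROY, encoded by Tnfrsf19, is a receptor of the tumour necrosis factor receptor family. In neurons TROY can take the place of the p75 neurotrophin receptor in a complex with the Nogo receptor and LINGO1, a leucine-rich repeat membrane protein, and this complex passes myelin signals to RhoA. LINGO2 and LINGO3 are relatives of LINGO1. MLE12 cells are a model of the alveolar type II cell, which makes pulmonary surfactant, including the hydrophobic surfactant proteins B and C that spread the lipid film. The series title places these receptors in epithelial wound healing.

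TROY cells had lower messenger RNA for both of those surfactant proteins, for the proteoglycan biglycan (Bgn), for the acute phase glycoprotein Orm3 and for the growth factor binding protein Igfbp4, and higher messenger RNA for the endocytic receptor megalin (Lrp2). Each gene was required to pass 2 conditions. The edgeR quasi-likelihood test had to give a Benjamini-Hochberg adjusted p under 0.05, and the gene had to differ at least 1.5-fold in the same direction from Lingo1 cells and from Lingo2 cells. Levels are given in CPM, the counts of a gene divided by the scaled library size in units of 1000000 reads. Of 11990 genes whose mean level reached 1 CPM, 63 passed both conditions, which is 0.525%. There were 11 higher genes (0.0917%) and 52 lower genes (0.434%). The words rose, fell, higher and lower are used below for these genes.

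The spread in this test is the difference between Lingo1 and Lingo2, 2 different knockouts, which left 1 residual degree of freedom. The single TROY library is assumed to vary like those 2. An adjusted p here speaks of these 3 libraries alone, since no TROY knockout culture was repeated. The biological coefficient of variation estimated from Lingo1 and Lingo2 was 0.0676. In edgeR 0 genes were called when it was set to 0.2 (86 at an unadjusted p under 0.05), when the Lingo3 knockout library was added to the group (811) or when no filter on level was used (1225), against 1634 at an unadjusted p under 0.05 in the fit reported here. DESeq2 called 8 of the 63, which were Lrp2, Sftpb, Sftpc, Bgn, Orm3, Igfbp4, Mcpt1 and the predicted microRNA gene Gm23935.

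The 250 bases before the RefSeq start site (build GRCm38.p6) are shown for genes that DESeq2 also called, so that the upstream sequence can be read beside the values. They are Lrp2 and the 3 lower genes whose window held a match. The windows of Igfbp4 and Mcpt1, which held 0 matches, are not printed. Sftpc had no window among the sequences used, and the predicted gene Gm23935 was left out. The lower genes shown were thus picked for holding a match. Capitals mark matches, on either strand, to 4 short motifs. They are an NKX2-type motif (CTCAAG), a forkhead motif (TGTTTNC), an AP-1 motif (TGANTCA) and a C/EBP motif (TTGCNNAA). The window of Sftpb lies at chr6:72304360-72304609, plus strand.
Sftpb: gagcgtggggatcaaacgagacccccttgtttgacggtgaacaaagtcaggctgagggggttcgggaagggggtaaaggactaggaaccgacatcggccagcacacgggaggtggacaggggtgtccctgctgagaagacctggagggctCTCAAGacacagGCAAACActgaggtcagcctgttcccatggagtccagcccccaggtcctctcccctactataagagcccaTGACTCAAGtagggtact
The window of Orm3 lies at chr4:63355908-63356157, plus strand.
Orm3: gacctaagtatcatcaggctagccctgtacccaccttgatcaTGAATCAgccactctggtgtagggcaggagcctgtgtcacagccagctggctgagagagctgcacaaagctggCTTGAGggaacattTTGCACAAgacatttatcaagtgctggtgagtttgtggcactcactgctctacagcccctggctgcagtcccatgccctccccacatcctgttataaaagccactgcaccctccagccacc
The window of Bgn lies at chrX:73483351-73483600, plus strand.
Bgn: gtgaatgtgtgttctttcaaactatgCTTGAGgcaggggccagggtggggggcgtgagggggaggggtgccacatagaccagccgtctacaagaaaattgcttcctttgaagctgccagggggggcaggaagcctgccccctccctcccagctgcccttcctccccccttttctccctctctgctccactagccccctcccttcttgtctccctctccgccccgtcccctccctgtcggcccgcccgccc
The window of Lrp2 lies at chr2:69586030-69586279, minus strand.
Lrp2: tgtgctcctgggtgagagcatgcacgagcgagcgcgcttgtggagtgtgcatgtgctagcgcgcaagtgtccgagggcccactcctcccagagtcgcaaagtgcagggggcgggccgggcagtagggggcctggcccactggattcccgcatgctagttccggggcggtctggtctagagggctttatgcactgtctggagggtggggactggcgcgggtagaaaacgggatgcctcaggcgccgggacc

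The Sftpb window held NKX2-type matches beginning 100 and 15 bases before the start, a forkhead match on the reverse strand at 88 and an AP-1 match at 18 that overlaps the NKX2-type match at 15. The Orm3 window held an AP-1 match at 208, an NKX2-type match on the reverse strand at 135 and a C/EBP match at 121. Bgn had a single NKX2-type match, on the reverse strand at 224, and the Lrp2 window held no match to any of the 4. Of the 52 lower genes, 35 had a window in the table. An AP-1 match stood in 6 of the 35 (17.1%), and in 7.82% of all 27025 genes with a window. The NKX2-type match stood in 5 (14.3%), and in 15.2% of all genes. A forkhead match stood in 6 (17.1%) and a C/EBP match in 4 (11.4%), and in 19.9% and 10.8% of all genes. Of the 11 higher genes, 8 had a window, and 3 of these held an NKX2-type match and 0 held any of the other 3 motifs. These are letter matches, which were not tested and do not show a site in use.

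The levels of the targeted genes could not check the knockout labels. Tnfrsf19 had 1 count in TROY cells, against 4 in Lingo1 cells and 3 in Lingo2 cells, so its loss could not be checked at this depth. Lingo2 had 0 counts in all 3 libraries, so its loss could not be seen either. Lingo3 had 0 in TROY cells, 0 in Lingo1 cells and 1 in Lingo2 cells. Lingo1 (chromosome 9, 56618475 to 56796468, GRCm38) stood at 34.3 CPM in TROY cells, against 56.5 CPM in Lingo1 cells and 50.9 CPM in Lingo2 cells. The Lingo1 transcript was thus present in the library labelled as the Lingo1 knockout, and the gene's sequence was not examined. Its log2 fold change in TROY cells was -0.65 with an adjusted p of 0.000138 in edgeR, but its ratio to Lingo2 cells, 0.674, missed 1.5-fold, so it is not among the lower genes. With total-count scaling it passed both conditions. Lingo4 had 23 counts in TROY cells, against 24 and 30 in Lingo1 and Lingo2 cells.

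The other measured genes of the Nogo receptor complex were not called. Rtn4, which encodes the ligand Nogo, stood at 221 CPM in TROY cells, against 206 CPM in Lingo1 cells and 197 CPM in Lingo2 cells. Rhoa, the small GTPase downstream, stood at 326 CPM in TROY cells, against 328 and 341 CPM in Lingo1 and Lingo2 cells. Of the 8 members tested from a list of 16, 0 were called. With 0.525% of all tested genes called, a count of 0 in a list of this size is near that share. The median log2 fold change was -0.11, beside 0.01 over all genes.

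Between 28109825 and 30597910 reads were counted in genes per library, and a count of 3 corresponds to between 0.0985 and 0.107 CPM. Reads that fell in no feature made up 6.20% of uniquely aligned reads in TROY cells, 5.44% in Lingo1 cells and 6.41% in Lingo2 cells. Epithelial markers fitted the label in part. Cdh1, which encodes E-cadherin, stood at 970 CPM in TROY cells, against 983 and 864 CPM in Lingo1 and Lingo2 cells, and Krt8 at 454 CPM, against 481 and 490 CPM. Krt18, the usual keratin partner of Krt8, was under 0.5 CPM in all 3 libraries, and Epcam stood at 7.03 CPM in TROY cells, against 7.08 and 8.07 CPM. Of the defining type II markers, Sftpd and Lamp3 had 0 counts in all 3 libraries, while Nkx2-1, the lung lineage transcription factor, stood at 172 CPM in TROY cells, against 162 and 178 CPM.

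**Figure D1:**
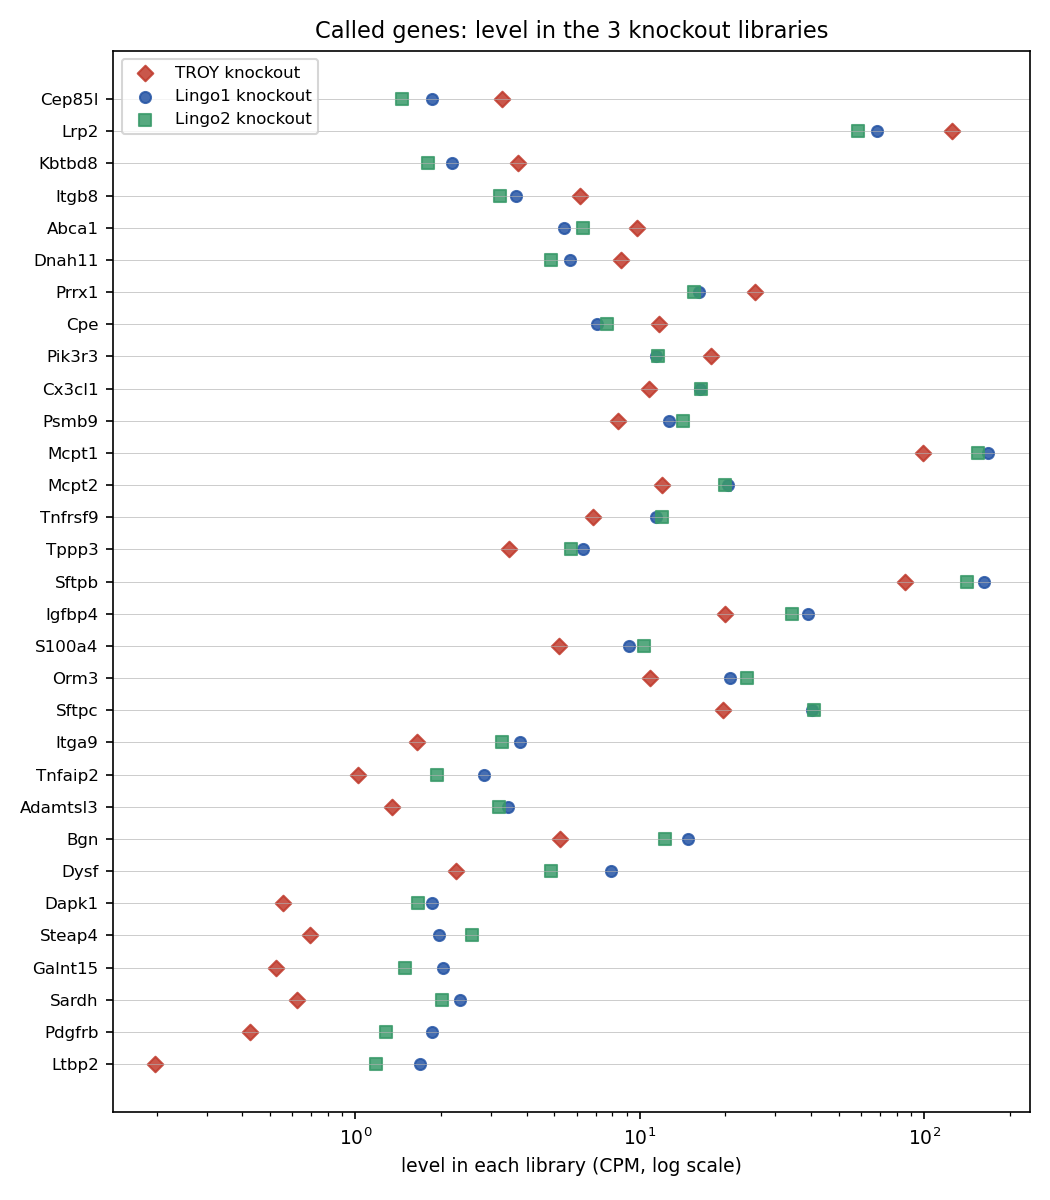
Level of each named gene (CPM, log scale) in the TROY, Lingo1 and Lingo2 knockout libraries, 1 point per library, ordered from the highest to the lowest fold. In the 9 genes at the top the TROY point lies to the right of both others, and in the genes below it lies to the left of both, down to Ltbp2 at 0.197 CPM in TROY cells.

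Surfactant genes were the clearest change in the type II program. Sftpc (chromosome 14, 70520949 to 70524081) stood at 19.6 CPM in TROY cells, against 40.3 CPM in Lingo1 cells and 41.1 CPM in Lingo2 cells. It fell by 1.05 ± 0.13 on the log2 scale (SE), with an adjusted p of 6.33e-12 in edgeR. Lingo1 and Lingo2 cells differed by a ratio of 0.981, far less than either differed from TROY cells. Sftpb (chromosome 6, 72304610 to 72314371) stood at 86.0 CPM in TROY cells, against 162 and 141 CPM in Lingo1 and Lingo2 cells, and fell by 0.82 ± 0.12 (SE, adjusted p 4.16e-08 in edgeR). Sftpb was no longer called once the trend on transcript length and GC content was removed, while Sftpc was. The authors' deposited RPKM values divide by a gene length that is the same in each library. They therefore cannot remove a length trend between libraries, and they draw on the same reads. In these values Sftpc stood at 24.6 in TROY cells, against 50.8 and 52.1 in Lingo1 and Lingo2 cells.

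Calls in the type II list were limited to the surfactant proteins, although Napsa too was lower in TROY cells than in both others. Of 11 tested members, 2 fell, 0 rose and 9 were not called, where 0.525% of all tested genes were called. The list's median log2 fold change was -0.20, beside 0.01 over all genes. Abca3, the lipid transporter of lamellar bodies, stood at 157 CPM in TROY cells, against 158 CPM in Lingo1 cells and 124 CPM in Lingo2 cells. The lipid enzyme Lpcat1 stood at 165 CPM in TROY cells, against 163 and 156 CPM. Napsa, the aspartic protease that processes surfactant protein B, had 2.10 CPM in TROY cells, against 3.08 and 3.53 CPM, with an adjusted p of 0.24 in edgeR. Alveolar type I genes gave 0 called of 13, although 2 had an adjusted p under 0.05 in edgeR. Hopx, a homeobox cofactor of that cell type, stood at 141 CPM in TROY cells, against 188 and 191 CPM, and Sema3e, a semaphorin, at 41.7 CPM, against 32.3 and 28.9 CPM, both short of 1.5-fold.

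Matrix genes with calls included Bgn, Ltbp2 and Adamtsl3. Ltbp2, a latent TGF-beta binding protein family member of elastic fibres, had 6 counts in TROY cells (0.197 CPM), against 47 in Lingo1 cells (1.68 CPM) and 34 in Lingo2 cells (1.18 CPM). It fell by 2.83 ± 0.58 on the log2 scale (SE, adjusted p 0.000399 in edgeR), but its mean level was just above 1 CPM, a filter it passed through the Lingo1 and Lingo2 libraries, and it was not tested at a filter of 5 CPM. Bgn (chromosome X, 73483602 to 73495933), a small leucine-rich proteoglycan that binds collagen, stood at 5.22 CPM in TROY cells, against 14.8 and 12.3 CPM in Lingo1 and Lingo2 cells. Bgn fell by 1.37 ± 0.18 (SE, adjusted p 2.31e-11 in edgeR), and its counting intervals ran from 0.292 to 0.425 of the Lingo1 level and from 0.350 to 0.514 of the Lingo2 level. Adamtsl3, an ADAMTS-like matrix protein, stood at 1.35 CPM in TROY cells, against 3.43 and 3.19 CPM.

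Most other matrix genes were not called. In the list of matrix glycoproteins and proteoglycans, 1 of 23 tested members fell, 0 rose, and the median log2 fold change was -0.20. Dcn, the proteoglycan most closely related to Bgn, stood at 2564 CPM in TROY cells, against 3181 and 3251 CPM in Lingo1 and Lingo2 cells, and did not pass, with an adjusted p of 0.37 in edgeR. Of 18 collagen genes, 0 were called, near the share of 0.525% over all tested genes. Col18a1, the collagen from which endostatin is cut, had an adjusted p of 1.6e-05 in edgeR but stood at 40.0 CPM in TROY cells, against 71.8 CPM in Lingo1 cells and 57.1 CPM in Lingo2 cells, short of 1.5-fold against the second.

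Among adhesion genes 1 subunit rose and 1 fell. Itgb8, the integrin beta subunit that activates latent TGF-beta, stood at 6.18 CPM in TROY cells, against 3.68 CPM in Lingo1 cells and 3.22 CPM in Lingo2 cells (log2 fold change 0.84 ± 0.21, SE, adjusted p 0.0104 in edgeR). Itga9, an integrin alpha subunit that binds tenascin, stood at 1.64 CPM in TROY cells, against 3.79 and 3.29 CPM. The other 18 of 20 tested integrin and laminin genes were not called. Prrx1, a homeobox factor of mesenchymal cells, rose to 25.3 CPM in TROY cells, against 16.1 and 15.5 CPM (log2 fold change 0.68 ± 0.13, SE, adjusted p 0.00025 in edgeR). Prrx1 was no longer called with the length and GC trend removed. In the same mesenchymal list S100a4 fell, while Zeb1, Zeb2, Snai1, Snai2 and Vim were not called.

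Lrp2 (chromosome 2, 69424340 to 69586065), which encodes megalin, an endocytic receptor of epithelial surfaces, ranked first by its counting interval among the higher genes once predicted genes were left out. It stood at 125 CPM in TROY cells, against 68.3 CPM in Lingo1 cells and 58.7 CPM in Lingo2 cells, a log2 fold change of 0.98 ± 0.11 (SE, adjusted p 3.72e-15 in edgeR). The ratio between Lingo1 and Lingo2 cells was 1.16, and the test favours genes in which these 2 lie close. Pik3r3, a regulatory subunit of phosphoinositide 3-kinase, stood at 17.8 CPM in TROY cells, against 11.4 and 11.6 CPM. Abca1, the cholesterol efflux pump, stood at 9.79 CPM in TROY cells, against 5.40 and 6.34 CPM. Of 23 cholesterol synthesis genes 0 were called, near the share of 0.525% over all tested genes. Pik3r3 and Abca1 were no longer called once the trend on transcript length and GC content was removed. Cpe, a prohormone-processing carboxypeptidase, stood at 11.7 CPM in TROY cells, against 7.05 and 7.65 CPM.

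The other 3 named higher genes belong to cilia, centrosome and ubiquitin ligase. Dnah11, a dynein heavy chain of motile cilia, stood at 8.61 CPM in TROY cells, against 5.69 and 4.88 CPM in Lingo1 and Lingo2 cells. Cep85l, a centrosomal protein, had 3.28 CPM in TROY cells, against 1.86 and 1.45 CPM. Kbtbd8, an adaptor of the cullin-3 ubiquitin ligase, had 3.74 CPM in TROY cells, against 2.18 and 1.80 CPM. None of these 3 was called with the length and GC trend removed. Foxj1, the transcription factor of ciliated cells, was not called, at 2.14 CPM in TROY cells, against 1.72 and 1.70 CPM. Another ciliated cell marker, Tppp3, was among the lower genes. Summed over 4 ciliated markers, of which 3 were tested and 1 was called, the level was 287 CPM in TROY cells, against 315 and 345 CPM. The highest fold belonged to Gm23935, a predicted microRNA gene of 57 bases that falls outside the naming rule, at 21.9 CPM in TROY cells, against 7.55 and 9.07 CPM. The remaining higher gene has an identifier that the annotation did not match.

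**Figure D2:**
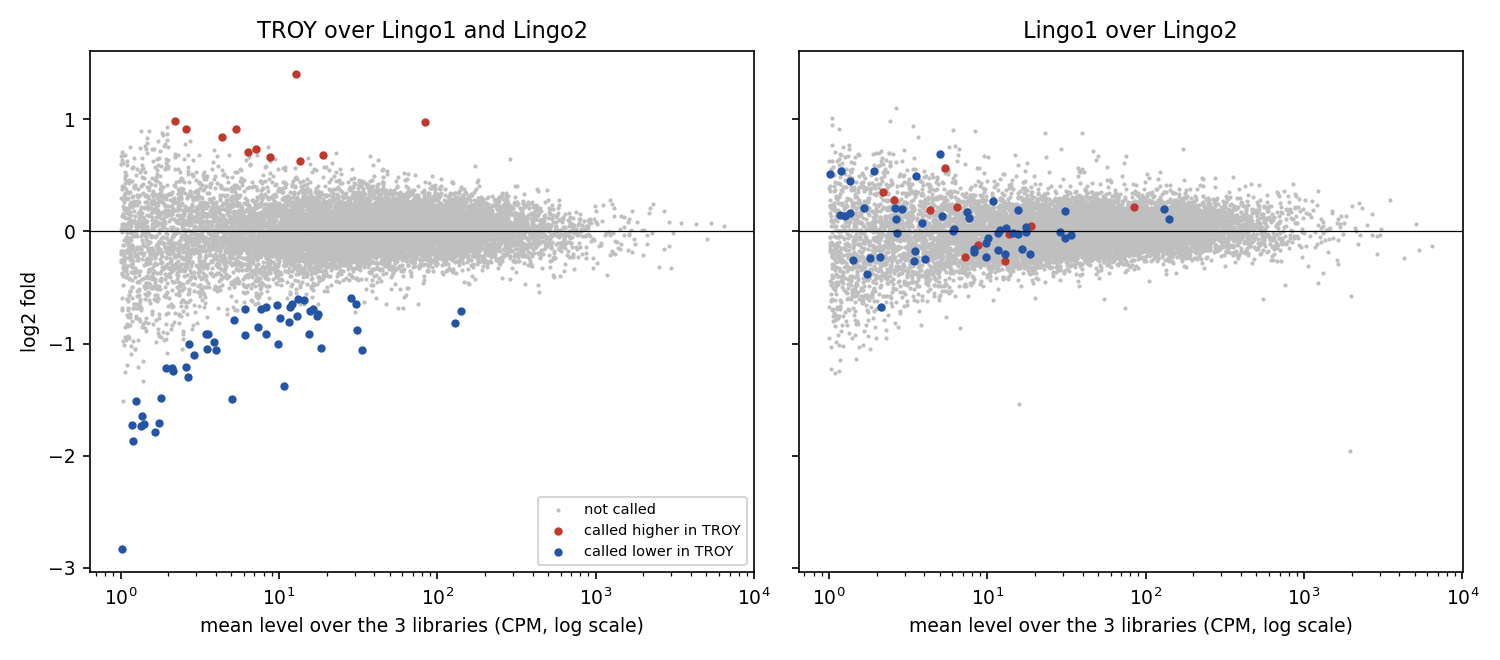
Log2 fold against mean level (CPM, log scale) for 11990 genes, each a point, with TROY over Lingo1 and Lingo2 on the left and Lingo1 over Lingo2 on the right. Red marks the 11 genes called higher and blue the 52 called lower in TROY cells, and the right panel shows the spread that the test used, so called genes lie near 0 there by selection, with 2 uncalled ribosomal RNA genes far below.

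The complement and acute phase list held a single call, Orm3. Orm3 (chromosome 4, 63356162 to 63359511), an acute phase plasma glycoprotein, stood at 10.8 CPM in TROY cells, against 20.8 CPM in Lingo1 cells and 23.8 CPM in Lingo2 cells. It fell by 1.04 ± 0.15 on the log2 scale (SE, adjusted p 5.81e-09 in edgeR). Its near copy Orm1 stood at 29.8 CPM in TROY cells, against 37.2 and 48.8 CPM, short of 1.5-fold against Lingo1 cells, and reads may be split among the Orm copies. Of 13 complement and acute phase genes tested, 1 fell, 0 rose, and the median log2 fold change was -0.25. C3, the central complement protein, stood at 7.49 CPM in TROY cells, against 9.19 and 10.8 CPM, and was not called.

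The mast cell proteases Mcpt1 and Mcpt2, which this epithelial line transcribes, both fell. Mcpt1 (chromosome 14, 56017971 to 56020384) stood at 98.7 CPM in TROY cells, against 168 CPM in Lingo1 cells and 155 CPM in Lingo2 cells. It fell by 0.71 ± 0.12 on the log2 scale (SE, adjusted p 8.01e-06 in edgeR). Mcpt2 stood at 11.99 CPM in TROY cells, against 20.4 and 19.9 CPM, and fell by 0.75 ± 0.15 (SE, adjusted p 0.000209 in edgeR). Mcpt1 and Mcpt2 both lost their call with the length and GC trend removed. These genes are close copies, so their reads may be divided between them. The other 4 of 6 tested list members were not called. Kit, the mast cell growth factor receptor, stood at 10.2 CPM in TROY cells, against 11.7 and 13.4 CPM. Immune markers were scarce, and their summed level was smallest in TROY cells. Summed over 5 of them, of which 1 was tested and 0 were called, the level was 1.74 CPM in TROY cells, against 2.90 and 3.36 CPM. Lyz2, the lysozyme of myeloid cells, had 5 counts in TROY cells, against 15 and 27, and Cd68, a macrophage marker, had 1.45 CPM, against 2.22 and 2.35 CPM. Ptprc, the pan-leukocyte marker, had at most 3 counts in any of the 3 libraries and Adgre1 had 0. Their part in the fall of the proteases was not tested.

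Antigen presentation and S100 genes lay slightly below 0 throughout, with few calls. All 17 tested antigen presentation genes had a log2 fold change below 0, with a median of -0.33, and 1 met both conditions. That was Psmb9, an immunoproteasome subunit, at 8.41 CPM in TROY cells, against 12.6 and 14.2 CPM in Lingo1 and Lingo2 cells. Its ratio to Lingo1 cells, 0.666, only just reached 1.5-fold, and its call was lost with RLE scaling and with the length and GC trend removed. The histocompatibility genes H2-DMb2 and H2-Q10 stand outside the list and the naming rule, and both were also lower genes. H2-DMb2 had 1.38 CPM in TROY cells, against 3.43 and 2.98 CPM in Lingo1 and Lingo2 cells. H2-Q10 had 2.33 CPM, against 4.76 and 4.50 CPM. Both kept their call with that trend removed, and DESeq2 called neither. All 21 tested S100 and annexin genes were likewise below 0, with a median of -0.28. An adjusted p under 0.05 in edgeR was reached by 4 of them, and 1 met both conditions. That was S100a4, a calcium-binding protein of motile cells, at 5.19 CPM in TROY cells, against 9.16 and 10.4 CPM. Of 31 interferon response genes 0 were called, near the share of 0.525% over all tested genes. Of all 11990 tested genes, 5871 had a log2 fold change below 0. Median exonic lengths were 2938 bases in antigen presentation genes and 1880 in S100 and annexin genes, beside 4521 over all tested genes. The fold moved with length over all genes. With the length and GC trend removed, 15 of 17 antigen presentation genes and 19 of 21 S100 and annexin genes were below 0. The part of length in these lists was not tested.

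Receptor and signalling genes gave isolated changes. Tnfrsf9, which encodes the costimulatory receptor 4-1BB and belongs to the same receptor family as TROY, stood at 6.87 CPM in TROY cells, against 11.4 CPM in Lingo1 cells and 11.9 CPM in Lingo2 cells. The other 20 of 21 tested TNF receptors and ligands were not called. Tnfaip2, a TNF-induced gene, stood at 1.02 CPM in TROY cells, against 2.83 and 1.94 CPM, and was the single call among 20 NF-kappaB target genes. Cx3cl1, the chemokine fractalkine, stood at 10.7 CPM in TROY cells, against 16.3 and 16.4 CPM, and was the single call among 12 cytokines and chemokines.

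Growth factor genes followed the same pattern of single members. Igfbp4, which binds and restrains insulin-like growth factors, stood at 19.9 CPM in TROY cells, against 38.9 CPM in Lingo1 cells and 34.4 CPM in Lingo2 cells. It fell by 0.88 ± 0.13 on the log2 scale (SE, adjusted p 4.31e-08 in edgeR), and the other 12 of 13 tested IGF axis genes were not called. Pdgfrb, a receptor for platelet-derived growth factor and a fibroblast marker, had 13 counts in TROY cells (0.427 CPM), against 52 in Lingo1 cells (1.86 CPM) and 37 in Lingo2 cells (1.28 CPM). Summed over 7 fibroblast markers, of which 4 were tested and 1 was called, the level was 2712 CPM in TROY cells, against 3354 and 3388 CPM, almost all of it Dcn. Of the 4 tested, Pdgfrb and Dcn lay below both other libraries. Col1a1 lay between them, at 145 CPM in TROY cells, against 169 and 133 CPM in Lingo1 and Lingo2 cells. Pdgfra also lay between them, at 2.60 CPM in TROY cells, against 2.47 and 2.98 CPM. The part of these markers in the result was not tested.

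The remaining named lower genes were mostly enzymes and membrane proteins of low level. Sardh, the mitochondrial sarcosine dehydrogenase, had 0.624 CPM in TROY cells, against 2.32 and 2.01 CPM in Lingo1 and Lingo2 cells. Steap4, a metalloreductase, had 0.690 CPM in TROY cells, against 1.97 and 2.56 CPM. Dapk1, the death-associated protein kinase, had 0.558 CPM in TROY cells, against 1.86 and 1.66 CPM. All 3 were under 1 CPM in TROY cells and passed the filter on level through the Lingo1 and Lingo2 libraries. Dysf, dysferlin, a protein of membrane repair, had 2.27 CPM in TROY cells, against 7.90 CPM in Lingo1 cells and 4.88 CPM in Lingo2 cells. For Dysf the Lingo1 and Lingo2 values were themselves 1.62-fold apart. Galnt15, a glycosyltransferase that starts O-linked sugars, had 0.526 CPM in TROY cells, against 2.04 and 1.49 CPM. Tppp3, a tubulin-binding protein and ciliated cell marker, had 3.48 CPM in TROY cells, against 6.33 and 5.75 CPM.

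Many called genes had low levels. The mean over the 3 libraries was under 5 CPM in 3 of the 11 higher genes, in 22 of the 52 lower genes and in 14.2% of all tested genes. In 10 lower genes TROY cells were under 1 CPM, so these passed the filter through the Lingo1 and Lingo2 libraries. The median absolute log2 fold change was 0.84 in the higher genes and 0.92 in the lower genes. Of the 63, 53 were annotated as protein coding and 10 were predicted genes, pseudogenes or unmatched identifiers, whose reads may come from a parent gene.

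A size rule that uses no test gave a shorter list. It asked for a fold of at least 2, with the bound of the exact 95% Clopper-Pearson interval nearest to 1 beyond 1.5-fold, against both libraries. Then 1 gene was higher in TROY cells (0.00834% of those tested), Gm23935, and 14 were lower (0.117%), among them Ltbp2, Bgn, Sardh, Sftpc, Steap4, Dapk1, Adamtsl3, Dysf, Galnt15 and Pdgfrb. The other 4 were pseudogenes. Against Lingo1 cells alone 2 genes were higher and 23 lower in TROY cells, and against Lingo2 cells alone 14 were higher and 28 lower. The intervals cover counting error only, since the reads carried no molecular identifiers and PCR copies count as reads.

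The same rule between Lingo1 and Lingo2 cells passed 2 genes, both ribosomal RNA. CT010467.1 stood at 1963 CPM in TROY cells, 799 CPM in Lingo1 cells and 3096 CPM in Lingo2 cells, and n-R5-8s1 at 15.1, 8.37 and 24.2 CPM in the same order. TROY cells lay between the other libraries in both. Over the 9252 genes whose mean level reached 10 CPM, the SD of the log2 ratio was 0.157 for TROY over Lingo1, 0.216 for TROY over Lingo2 and 0.149 for Lingo1 over Lingo2. At 1.5-fold, 36, 107 and 21 of these genes differed in the same 3 pairs, and 24 differed between TROY cells and both others in 1 direction. By this SD TROY cells were about as far from Lingo1 cells as Lingo2 cells were.

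Set beside the Lingo3 knockout library, which was not in the fit, the TROY level lay above all 3 others in 9 of the 11 higher genes and below all 3 in 49 of the 52 lower genes. These genes were chosen for lying beyond Lingo1 and Lingo2 cells. Over all tested genes in which TROY cells lay above both, 78.8% lay above Lingo3 cells too, and over those in which TROY cells lay below both, 77.3% lay below Lingo3 cells too. Lingo3 cells themselves lay beyond Lingo1 and Lingo2 cells, on the TROY side, in 8 of the 11 higher genes and in 12 of the 52 lower genes. For Lrp2 the Lingo3 level was 1.48 times the mean of Lingo1 and Lingo2 cells. Sftpc in TROY cells was 0.241 of its level in Lingo3 cells, Sftpb 0.528 and Bgn 0.0535. The Lingo3 level was itself 1.99, 1.07 and 7.19 times the mean of Lingo1 and Lingo2 cells in these genes. In Ltbp2, Dapk1, Pdgfrb and Dysf it was between 6.67 and 7.92 times that mean. Bgn thus differed more among the LINGO knockouts than between TROY cells and the Lingo1 and Lingo2 group (2.59-fold). The lower genes that did not lie below all 3 others were Mcpt1, Mcpt2 and Ctse, the protease cathepsin E. For these, TROY cells had 1.67, 3.58 and 1.20 times the Lingo3 level. Among the higher genes Cpe and Abca1 stood at 0.912 and 0.949 of the Lingo3 level.

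**Figure D3:**
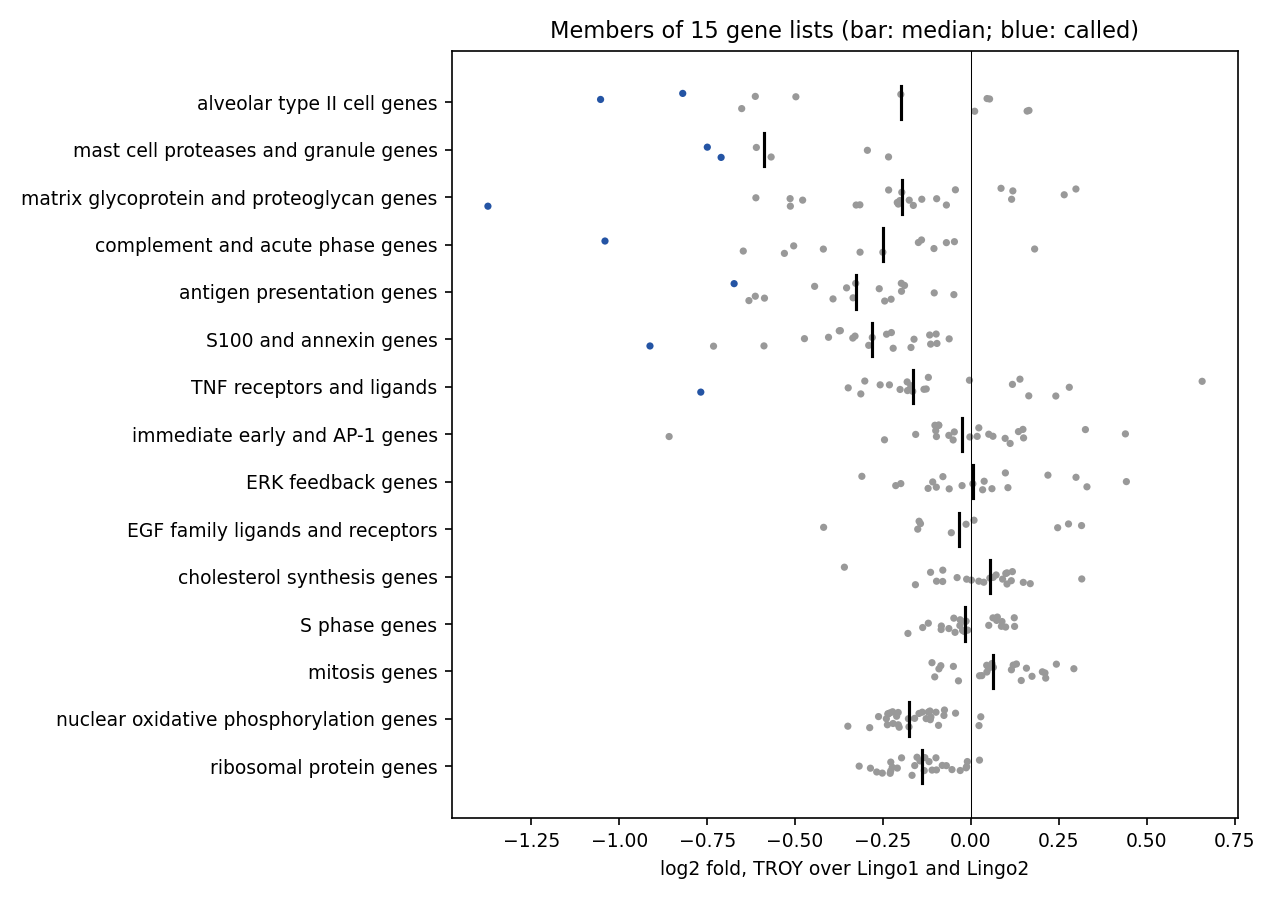
Log2 fold change, TROY over Lingo1 and Lingo2, of every tested member of 15 gene lists, 1 point per gene, with a bar at each list's median and blue for called genes. Called members sit at the low end of 7 lists, and the cell cycle, cholesterol and early response lists lie around 0 with no called member.

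Early response, ERK feedback, EGF family, Wnt, S phase and mitosis lists held no called member. With 0.525% of all tested genes called, a count of 0 in lists of this size is near that share. Of 24 immediate early and AP-1 genes 0 were called, with a median log2 fold change of -0.03. Of 19 ERK feedback genes 0 were called (median 0.01), and of 10 EGF family ligands and receptors 0 (median -0.03). In 27 Wnt pathway genes the count was 0 (median 0.02). Dact2 and Daam2, Wnt regulators outside that list and the naming rule, were lower genes and kept their call with the length and GC trend removed. Dact2 stood at 5.88 CPM in TROY cells, against 10.8 and 12.7 CPM in Lingo1 and Lingo2 cells. Daam2 stood at 5.45 CPM, against 9.19 and 8.45 CPM. In 24 S phase genes the count was 0 (median -0.02) and in 24 mitosis genes 0 (median 0.06). Of the 53 lists, 16 had a called member and 37 had none, and 18 of the 63 called genes belonged to any list.

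Some genes outside the naming rule missed a call by the fold condition alone and are named after their values were seen. Muc5b, a gel-forming airway mucin, stood at 115 CPM in TROY cells, against 83.2 CPM in Lingo1 cells and 80.1 CPM in Lingo2 cells (adjusted p 0.0022 in edgeR). Krt14, a basal cell keratin, stood at 126 CPM in TROY cells, against 173 and 175 CPM (adjusted p 0.013 in edgeR). Fbln5, an elastic fibre protein, stood at 45.0 CPM in TROY cells, against 66.9 and 61.5 CPM, and Tnc, which encodes tenascin C, at 27.4 CPM, against 40.8 and 37.5 CPM. In these 4 genes TROY cells lay outside the range of the other 2 libraries. In all, 231 genes had an adjusted p under 0.05 in edgeR, 118 with a log2 fold change above 0 and 113 with one below.

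Transcript length and base composition moved with the fold over all genes. The median exonic length was 9174.5 bases in the higher genes, 3162.5 bases in the lower genes and 4521 bases over all tested genes, and the median GC content was 46.7%, 55.1% and 50.1% in the same order. From the bin of the shortest genes to that of the longest, among 5 equal bins, the median log2 ratio ran from -0.17 to 0.20 for TROY over Lingo2, from -0.08 to 0.09 for TROY over Lingo1 and from -0.09 to 0.12 for Lingo1 over Lingo2. From the bin of lowest to that of highest GC content it ran from 0.11 to -0.10 for TROY over Lingo1 and from 0.11 to -0.04 for TROY over Lingo2, while for Lingo1 over Lingo2 it ran from 0.00 to 0.06.

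**Figure D4:**
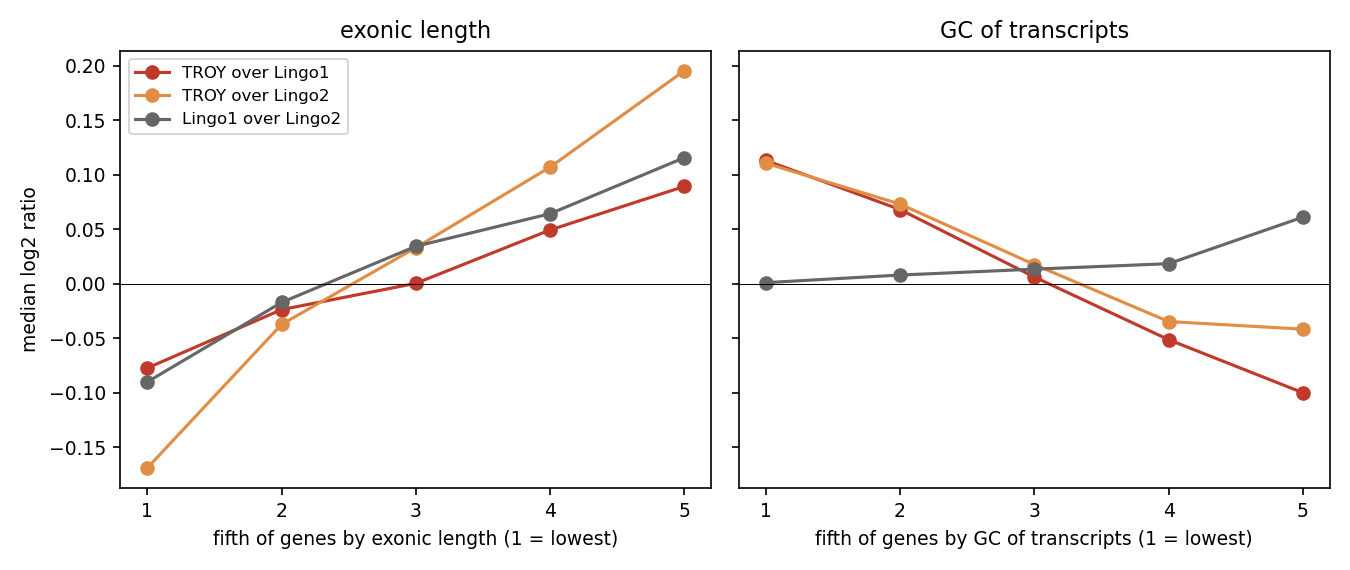
Median log2 ratio in 5 equal bins of the genes whose mean level reached 10 CPM, by exonic length on the left and by GC content on the right, with 1 line per pair of libraries. All 3 lines climb with length, and the 2 lines for TROY cells descend with GC content while the line for Lingo1 over Lingo2 does not.

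With that trend removed, an alternative added after the data were seen, 8 genes were called higher and 39 lower, of which 5 and 33 were among the 11 and 52. Lrp2, Itgb8, Cpe, Sftpc, Bgn, Orm3 and Igfbp4 were among those still called. Of the 9 named higher genes, 3 kept their call and 6 did not, which were Prrx1, Pik3r3, Abca1, Cep85l, Kbtbd8 and Dnah11. Of the 22 named lower genes, 16 kept their call and 6 did not, which were Sftpb, Mcpt1, Mcpt2, Psmb9, Tppp3 and Cx3cl1. The log2 fold change of Sftpb was then -0.66 and that of Mcpt1 -0.59. The medians moved to -0.16 for S100 and annexin genes, -0.21 for antigen presentation genes, -0.45 for mast cell genes and -0.17 for type II genes. Those of 31 nuclear oxidative phosphorylation genes and 28 ribosomal protein genes, with 0 called in either, moved to -0.06 and -0.02, from -0.18 and -0.14 without the correction. The part of length and GC content in the calls was not tested further.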

How the data were processed

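Messenger RNA libraries (TruSeq mRNA kit, per the labels' protocols) were given in the authors' deposited table of raw counts for each Ensembl gene. A second deposited table held RPKM values and log2 ratios; the RPKM values were printed for 1 gene and the authors' log2 ratios were not used. The submitters' processing notes name Trimmomatic 0.39, STAR, HTSeq, edgeR and GRCm38, without order or settings, and strandedness is not given in the sources used here. HTSeq's summary lines stayed out of library sizes. Reads that aligned to several places numbered between 12456078 and 14549837 per library and were not counted in genes.

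The TROY library was tested against Lingo1 and Lingo2 with TMM scaling and the quasi-likelihood test of edgeR 4.0.16 (R 4.3.3), adjusted with Benjamini-Hochberg over 11990 genes whose mean level reached 1 CPM. The SE is the log2 fold change divided by the square root of F. The procedure was tested on simulated data. Alternatives were other scalings, filters, fixed dispersions, fold limits, Lingo3 added, protein-coding genes only, a DESeq2 1.42.0 test and, added after the data were seen, spline removal of length and GC trends. Of 46078 identifiers 45229 matched GENCODE M21 (GRCm38). Promoter sequences are RefSeq's, build GRCm38.p6.

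Named genes are the targeted genes, up to 12 called per direction ranked by the interval bound nearest to 1 (without predicted genes, pseudogenes and clones), up to 5 called members per list, line markers, and genes past the size rule between Lingo1 and Lingo2. The libraries compared and the 53 gene lists were chosen with earlier results of these data known.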

Additional observations from a re-analysis of the deposited data

How the results depend on the processing

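Under the edgeR quasi-likelihood test 11 genes were called higher and 52 lower in TROY cells. The counts were 0 and 0 with no expression filter (1225 genes at an unadjusted p under 0.05), with the coefficient of variation fixed at 0.2 (86 genes) and with Lingo3 added (811 genes). They were 3 higher and 31 lower with the coefficient fixed at 0.1, and 2 higher and 6 lower with DESeq2. With no fold condition they were 118 and 113, with a fold of at least 2 they were 1 and 17, and with a mean of at least 5 CPM the lower count was 32. The cause was not tested, apart from the fold and level limits, which admit other genes by construction. RLE or total-count scaling, protein-coding genes alone and trend removal kept both counts within 1.5 times. The size rule's 1 higher gene became 4 with no filter, and between 2 and 14 with Lingo2 or Lingo1 left out. Its 14 lower genes became 3 at 5 CPM, and between 23 and 28 with Lingo2 or Lingo1 left out. RLE scaling ended the call of Psmb9. Of the 31 called genes named by the rule, 0 changed direction under the alternatives that gave them a value. A call already required the same direction against both libraries, so leaving 1 of them out could not reverse it. The other alternatives on the same 3 libraries could hardly do so either. No paired analysis was possible because each genotype had 1 library.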
